A study of Mus musculus with 5 samples.

Results

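Cytosolic ribosomal protein genes encode the proteins of the small and large ribosomal subunits that translate nuclear-encoded mRNA. They were taken as every probe set annotated with exactly 1 gene symbol that begins with Rpl or Rps and a digit, or is Rpsa, Rplp0, Rplp1, Rplp2 or Fau, leaving out pseudogene symbols and the Rps6k kinases. This gave 107 probe sets for 51 genes, of 45037 probe sets and 18193 genes on the array. The RNA came from KLS cells, sorted as positive for c-Kit and Sca-1 and negative for lineage markers, and was read on Affymetrix arrays. This fraction of mouse bone marrow holds haematopoietic stem cells and multipotent progenitors. The 2 control arrays, titled wild type, carry the genotype Rb +/+ p130 +/+ p107+/-, so they had 1 intact allele of p107. The 3 deficient arrays are labelled Rb -/- p130 -/- p107-/-, for loss of the pocket proteins RB, p130 and p107, which restrain E2F transcription factors. Of the 3 transcripts, that of p107 was lower beyond the threshold and those of RB and p130 were not, as given with the marker genes below. The mice carried floxed alleles of the Rb family, and in both groups the labels give recombination by the inducible Mx1Cre system at 6 weeks of age and sorting 2 months later. The Mx1 promoter responds to interferon in many cell types, so recombination is not limited to blood-forming cells. Nothing in the labels tells whether an array holds RNA of 1 animal or of several. A p-value here therefore reflects the spread between arrays, which may be technical.

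A ribosome holds 1 copy of nearly every ribosomal protein, and their mRNAs are among the most abundant in a dividing cell. Most of these mRNAs carry a 5′ terminal oligopyrimidine tract (TOP), a C at the first base followed by a run of C and T, through which mTOR signalling and the RNA-binding protein LARP1 set their translation and stability. In blood formation they are known from Diamond-Blackfan anaemia, in which loss of 1 copy of a ribosomal protein gene impairs red cell production.

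The members fall into 22 small-subunit genes, 20 large-subunit genes, 2 genes of the large subunit's stalk and 7 paralogues and relatives. Of 78 core ribosomal protein genes listed, 44 had a probe set of their own, and 27 more appeared only on probe sets that also list a pseudogene or another gene. The other 7 were not analysed here. Levels are in log2 intensity, and a difference is the deficient mean less the control mean in the same unit. Gene values are from the brightest probe set that lists the gene alone. Some members are also listed on probe sets shared with other symbols, which were left out of gene values whatever their brightness. Among these members are Rps6, Rps19, Rps27, Rpl12, Rpl14, Rpl27a, Rpl37 and Rpl37a.

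The annotated starts of the members were read from RefSeq (GRCm38.p6), because the TOP tract begins at the first transcribed base. Of 51 member genes 45 were matched. A C at the annotated start followed by at least 4 C or T was found for 9 of the 45 (20.0%), against 3.01% of all 27025 genes in the table. Allowing the tract to begin within 5 bases of the start, the counts were 21 of 45 (46.7%) and 21.2%. The median difference between groups, described next for all members, was -0.194 for the 9 genes with the tract at the start and -0.095 for the other genes matched, given as a description. The following 30 bases span 15 before and 15 from the start, 5′ to 3′, with the tract in capitals, and are shown for members described below. The last 3 show starts without a C at the first base.
Fau, chr19:6057932-6057961, plus strand: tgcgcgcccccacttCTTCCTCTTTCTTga
Rps6, chr4:86857353-86857382, minus strand: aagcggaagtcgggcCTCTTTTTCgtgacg
Rps10, chr17:27635230-27635259, minus strand: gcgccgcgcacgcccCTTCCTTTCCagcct
Rps27, chr3:90213634-90213663, minus strand: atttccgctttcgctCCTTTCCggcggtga
Rpl35, chr2:39005117-39005146, minus strand: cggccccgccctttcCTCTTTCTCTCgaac
Rps15, chr10:80292416-80292445, plus strand: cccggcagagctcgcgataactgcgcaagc
Rpl37a, chr1:72711245-72711274, plus strand: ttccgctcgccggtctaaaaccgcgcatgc
Rpl22l1, chr3:28805493-28805522, plus strand: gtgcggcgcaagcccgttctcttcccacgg
These are annotated starts, and the first transcribed base in these cells was not measured.

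In the window of 250 bases before to 50 bases after the start, both strands were searched for core motifs. CCGGAAG, the core bound by ETS-family factors, was present for 21 of 45 members (46.7%) and 9.93% of all genes. AAGATGG, bound by YY1, was present for 9 of 45 (20.0%) and 7.28%. CACGTG, bound by MYC and MAX, was present for 4 of 45 (8.9%) and 8.09%. The E2F forms TTTCCCGC, TTTGGCGC, TTTCGCGC and TTTGCCGC were present for 2 of 45, Rps3a1 and Rpsa (4.4%), and 2.6% of all genes. TATAAA was present for 6 of 45 (13.3%) and 15.7%. Median differences between groups, for members with and without a feature, also varied for these motifs. They were -0.084 and -0.19 for CCGGAAG, -0.097 and -0.107 for AAGATGG, and -0.172 and -0.105 for CACGTG. For the E2F forms they were -0.016 and -0.109, and for TATAAA -0.071 and -0.12. Neither these splits nor that by the tract was tested. No 2 of these motifs overlapped in a member. The match to a motif is a description of the sequence and not a measured binding site.

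Most ribosomal protein genes had slightly lower means in the deficient arrays, and 0 of them passed the threshold. Means were lower for 44 of 51 genes and higher for 7, where 51.9% of all genes had lower and 48.1% higher means. The median difference was -0.0967, against -0.0104 over all genes, and differences ran from -0.54 for Rpl39l to 0.49 for Rpl27a. At adjusted p under 0.05 (limma, Benjamini-Hochberg over all genes), 0 members were lower and 0 higher, where 1.41% and 0.83% of all genes were called. The smallest difference that passed for any gene was 0.59 in size, above the 0.54 of the largest member difference, so a count of 0 does not show that the members' levels were equal. At an unadjusted p under 0.05, 9 members were lower and 0 higher, a share of 17.6% lower where the share of all genes was 9.86% (8.79% higher). Every deficient array lay below both controls for 32 of 51 members, where this held for 18.6% of all genes, and above both controls for 1 member, where the share was 16.5%.

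The 107 probe sets gave similar values. Means were lower for 86 and higher for 21, where the shares of all probe sets were 49.5% and 50.5%, and the median difference was -0.0998 against 0.00266 over all probe sets. The groups did not overlap, with deficient below, on 61 (15.2% of all probe sets), and with deficient above on 4 (15.4%). At an unadjusted p under 0.05, 13 were lower and 1 higher (6.82% and 7.28% of all probe sets), and 0 passed adjustment (0.326% and 0.164%). Summed, the member probe sets held 6.02% and 5.99% of all intensity on the controls and 5.59%, 5.53% and 5.68% on the deficient arrays. The deficient shares thus lay below both controls.

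**Figure D1:**
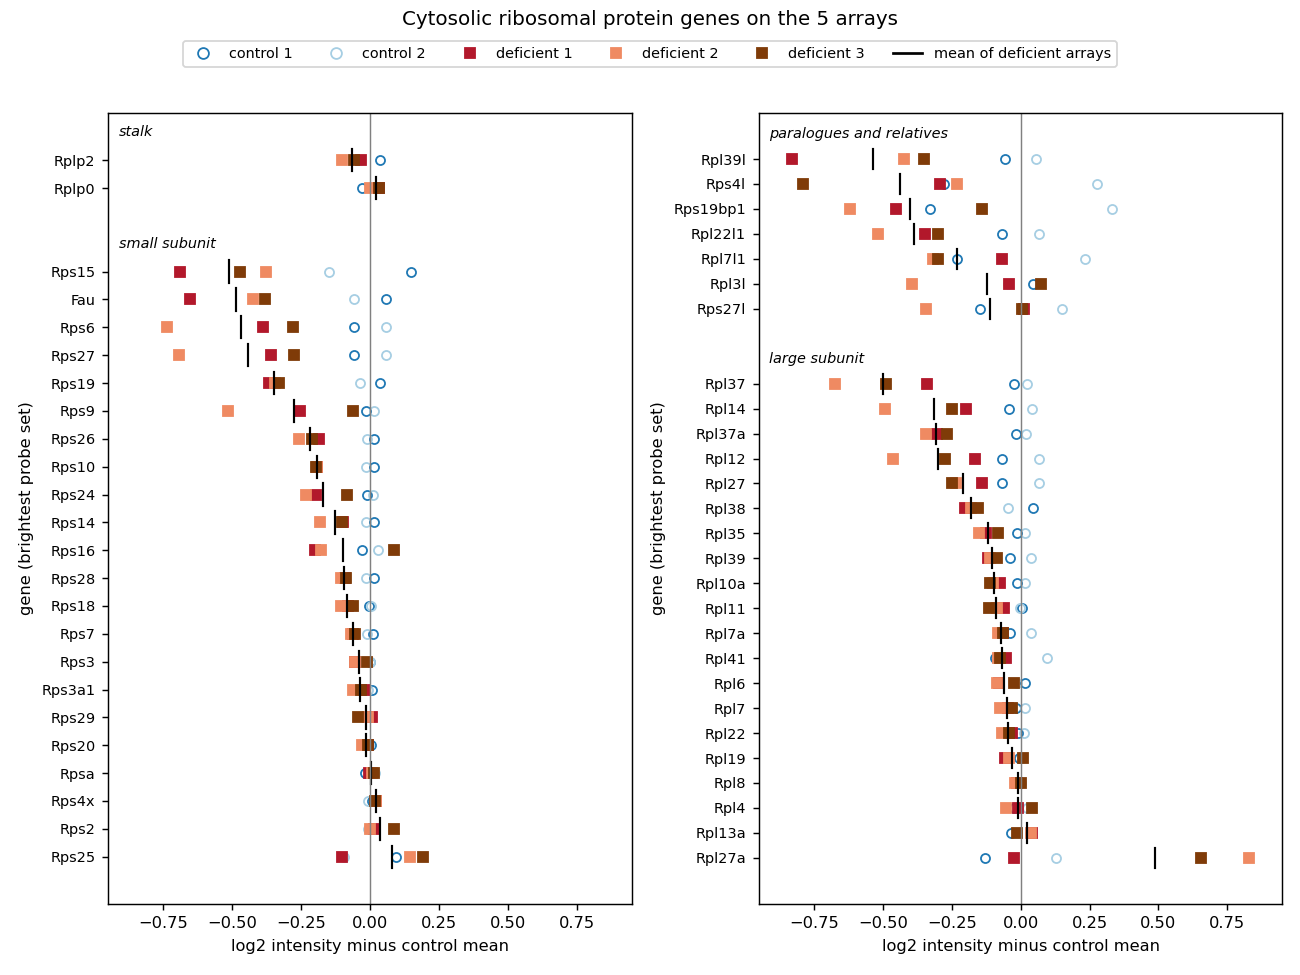
Log2 intensity of each of the 51 genes (brightest probe set) minus its control mean, by array and class. Open circles are the 2 control arrays, filled squares the 3 deficient arrays and black bars the deficient mean. Deficient points sit left of both controls for 32 genes, and the differences run from -0.54 to 0.49.

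Among small-subunit genes, 18 of 22 had lower means, and 0 passed. Rps15, a protein of the subunit's head needed for export of its precursor from the nucleus, read 13.33 and 13.04 on the controls and 12.50, 12.81 and 12.71 on the deficient arrays. All 3 deficient arrays were below both controls, with a difference of -0.51 (SE 0.15, limma adjusted p = 0.147). A dimmer Rps15 probe set, at a level of 10.28, differed by -0.12 with overlapping groups. Fau, which encodes a ubiquitin-like protein fused to the ribosomal protein S30, read 13.22 and 13.10 on the controls and 12.50, 12.73 and 12.78 on the deficient arrays. The groups did not overlap for Fau, and the difference was -0.49 (SE 0.13, limma adjusted p = 0.122). The C and T tract at the Fau start, printed above, is the longest of the 8 shown.

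Rps6 encodes a protein phosphorylated by the S6 kinases under mTOR. It read 11.46 and 11.58 against 11.13, 10.78 and 11.24, a difference of -0.47 (SE 0.16, limma adjusted p = 0.1997). A dimmer Rps6 probe set, at a level of 4.35, differed by -0.039 with overlapping groups. Rps27, a zinc-binding small-subunit protein, read 5.61 and 5.73 against 5.31, 4.98 and 5.39 on its only probe set with 1 symbol (difference -0.44, SE 0.16, adjusted p = 0.203). On the brightest probe set of both genes deficient 2 was the lowest array and the groups did not overlap. The Rps27 probe set is dim, with a mean level of 5.40, where the median level of the 44 core genes was 14.1.

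At the other end, Rps25, which acts in initiation from internal ribosome entry sites, read 10.24 and 10.06 against 10.05, 10.30 and 10.34 (difference 0.08, adjusted p = 0.848). Rps2 differed by 0.035, the X-linked Rps4x by 0.021 and Rpsa, which also gives rise to a laminin receptor, by 0.0046, with adjusted p of at least 0.915. Rps4x was the member whose deficient arrays lay above both controls, by 0.021 in the means.

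**Figure D2:**
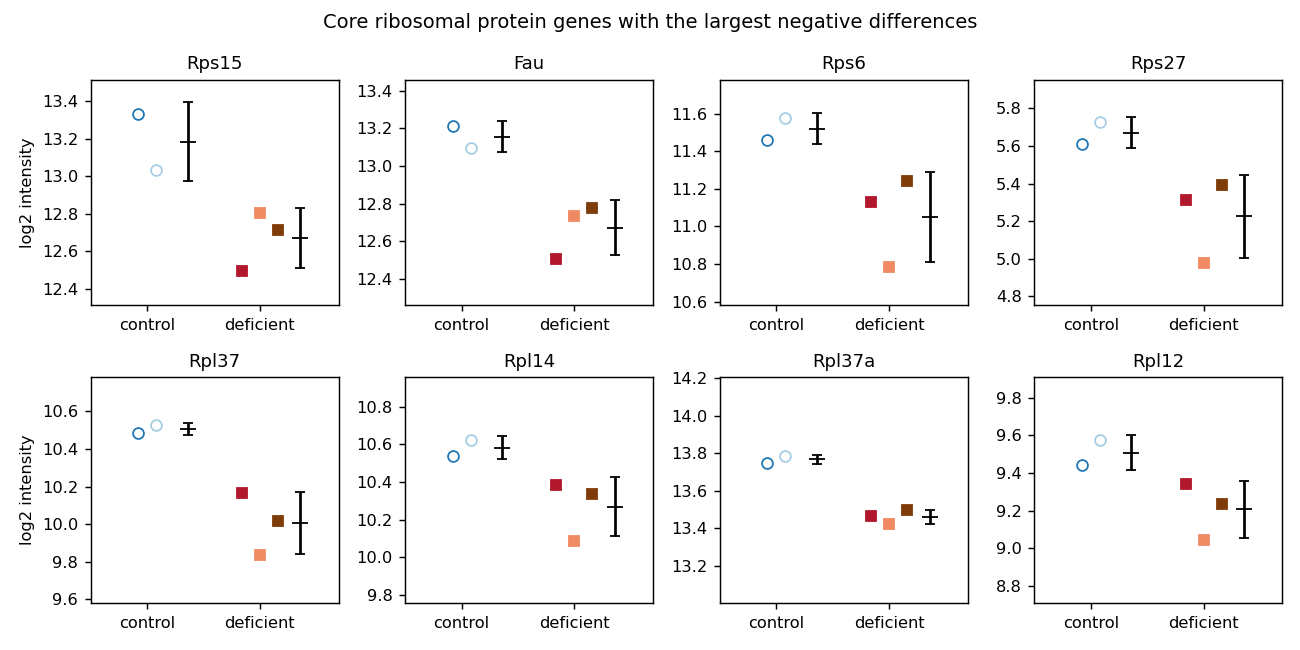
Log2 intensity by array for the 4 small-subunit (upper row) and 4 large-subunit genes (lower row) with the largest negative differences. Symbols are arrays, bars are mean and SD of 2 control or 3 deficient arrays, and each panel spans 1.2 log2 units; the groups do not overlap in any of the 8 panels.

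Among large-subunit genes, 18 of 20 had lower means and 0 passed. Rpl37, a zinc-finger protein, read 10.48 and 10.53 on the controls and 10.17, 9.83 and 10.02 on the deficient arrays, a difference of -0.50 (SE 0.13, adjusted p = 0.121). Rpl37a, another zinc-finger protein, read 13.75 and 13.79 against 13.47, 13.42 and 13.50 (difference -0.31, SE 0.10, adjusted p = 0.189). The groups did not overlap for either, and for Rpl37a the spread within each group was small, with SD of 0.03 and 0.04. Rpl14 differed by -0.31 (SE 0.13, adjusted p = 0.280) and Rpl12, which sits at the base of the stalk, by -0.30 (SE 0.13, adjusted p = 0.302). Both also had all deficient arrays below the controls.

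Rpl27a went the other way, with 8.52 and 8.77 on the controls and 8.62, 9.48 and 9.30 on the deficient arrays. Its groups overlapped through deficient 1 (difference 0.49, SE 0.26, adjusted p = 0.411). Rpl13a differed by 0.022 (adjusted p = 0.947). The stalk binds the elongation factors. Its scaffold gene Rplp0 differed by 0.021 (adjusted p = 0.951) and Rplp2 by -0.064 (adjusted p = 0.831), with overlapping groups in both.

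All 7 paralogues and relatives had lower means, with a median of -0.39, and 0 passed. Rpl39l, a paralogue of Rpl39 known from testis, read 5.96 and 6.08 against 5.19, 5.59 and 5.67 (difference -0.54, SE 0.17, adjusted p = 0.169). Rpl22l1, the paralogue of Rpl22, read 12.86 and 12.99 against 12.58, 12.41 and 12.63 (difference -0.39, SE 0.12, adjusted p = 0.167). These were the 2 of the 7 whose groups did not overlap (28.6%, against 18.6% of all genes with deficient below). The RPL22 and RPL22L1 proteins are known to act in blood cell development.

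Rps19bp1, which encodes a binding partner of RPS19 and no ribosomal protein, read 9.07 and 9.73 against 8.95, 8.78 and 9.26 (difference -0.40, SE 0.24). Rps4l, a relative of Rps4x, read 6.91 and 7.47 against 6.90, 6.96 and 6.40 (difference -0.44, SE 0.24). In both, control 1 lay within the range of the deficient arrays. Rpl7l1 differed by -0.23 (SE 0.17), Rps27l, a p53-inducible paralogue of Rps27, by -0.11 (SE 0.17), and Rpl3l, known from muscle, by -0.12 (SE 0.16) at a level below the array medians. Adjusted p was at least 0.412 for each of these 5. The other probe sets of Rpl7l1, both dimmer, had higher means in the deficient arrays, by 0.099 and 0.36, with overlapping groups.

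Of 22 ribosomal protein genes listed as mutated in Diamond-Blackfan anaemia, 12 were measured. All 12 means were lower, 10 had groups that did not overlap (deficient below, 18.6% of all genes), and 0 passed. Among all 44 core genes, these 12 included, 37 had lower means (84.1%) and 30 had deficient below both controls (68.2%). Core genes with lower means include Rps27, also in the disease list, Rpl39 and Rps16, read at low levels of 5.40, 5.17 and 3.42. Rps19, the first gene linked to that disease, read 13.22 and 13.15 on the controls and 12.81, 12.84 and 12.85 on the deficient arrays (difference -0.35, SE 0.10, adjusted p = 0.146). All 3 deficient arrays lay between 12.81 and 12.85. Rps26, which lies at the mRNA exit channel, differed by -0.22 (SE 0.10, adjusted p = 0.340). Of 9 listed ribosomal proteins that bind MDM2, the ubiquitin ligase of p53, 6 were measured, with a median of -0.0985. Rps14 differed by -0.13 and Rpl11, part of the 5S ribonucleoprotein, by -0.088 (adjusted p of 0.617 and 0.749).

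Which members passed depended on how the spread was modelled. limma draws each probe set's variance towards a prior, which in the fit above was 1 value for the whole array. With a prior that follows intensity, the SE of Rpl37a was 0.053 in place of 0.10, and 3 genes were lower (1.94% of all genes) and 0 higher (1.12%). They were Rpl37a (adjusted p = 0.0294), Rps19 (0.0308) and Fau (0.0401), with the same differences as above. Over all probe sets 2 passed as lower, for Rpl37a and Rps19 (0.577% of all probe sets), and 0 as higher (0.313%). With that prior and any 1 of the 5 arrays left out, 0 members passed.

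The size of the difference varied with brightness. Probe sets at a mean log2 of 14 or more included 32 members, whose differences stayed between -0.18 and 0.03 with a median of -0.0552. Deficient lay below both controls for 21 of them (65.6%). The 30 other probe sets at this level also leaned lower, with a median of -0.0249, lower means in 63.3% and deficient below in 43.3%. The 29 members between 12 and 14 had a median of -0.18, and deficient lay below both controls for 25 of them (86.2%). Other probe sets between 12 and 14, leaving out any that list a ribosomal protein gene, had a median of 0.0461 and deficient below in 19.2% of 600. The 17 members between 10 and 12 had a median of -0.20, with 9 not overlapping (52.9%, against 20.1% of other probe sets). Below 10 the members were divided, with medians of -0.0462 between 6 and 10 (12 probe sets) and -0.0395 under 6 (17 probe sets). The highest value on each array lay between 14.89 and 14.93. Whether this upper end limits the differences of the brightest members was not tested.

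**Figure D3:**
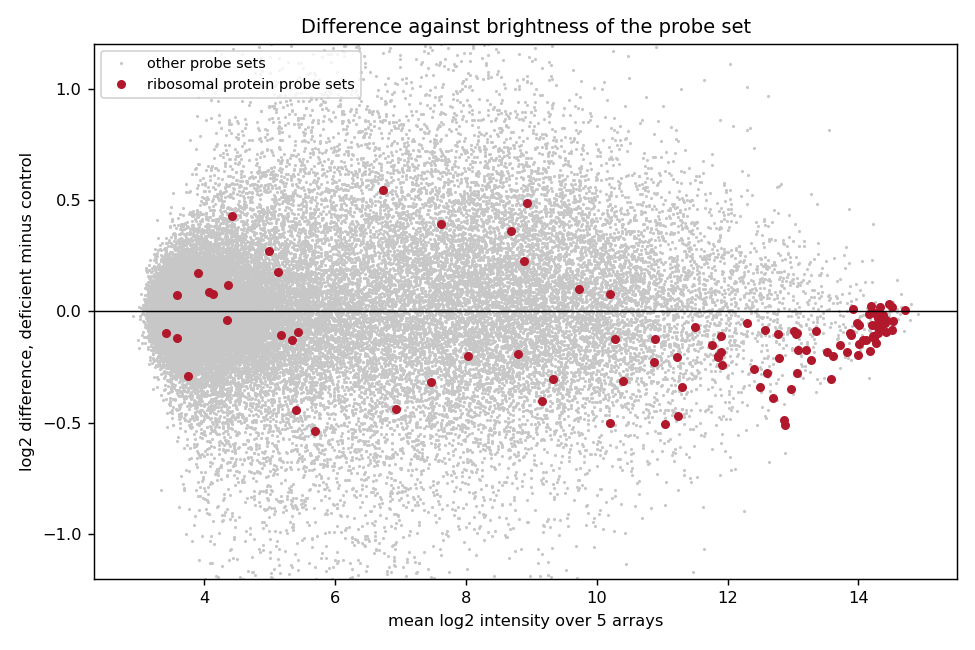
Log2 difference against mean log2 intensity for all probe sets (grey) and the 107 members (red); the vertical axis shows -1.2 to 1.2, and grey points beyond it are not drawn. Members between 10 and 14 lie mostly below 0, and those above 14 converge on it.

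Probe sets of the same gene did not always give the same answer. Of 24 genes with 2 or more probe sets, 12 had all of them lower, 2 had all higher and 10 had both signs. Each of the 10 member probe sets with a difference above 0.1 had a mean level of 8.94 or less. For Rps10 the 5 probe sets with levels from 11.86 to 13.99 differed by -0.20 to -0.098, while the sixth, at 6.74, differed by 0.54 with deficient above both controls (unadjusted p = 0.0291, adjusted p = 0.280). For Rps24 the 4 brighter probe sets differed by -0.24 to -0.17 and the 2 dimmer by 0.23 and 0.27. Rps9 read -0.28 on each of 2 bright probe sets and 0.39 on a dim one. Rpl35 ran from -0.34 to -0.105 on 5 bright probe sets and 0.43 on one at 4.43. Rpl37a was steady over 3 probe sets, from -0.34 to -0.31. For Rpl22 the probe sets read -0.047, -0.082 and -0.51, all with deficient below. Which transcripts or exons these probe sets target is not given in the sources used here.

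**Figure D4:**
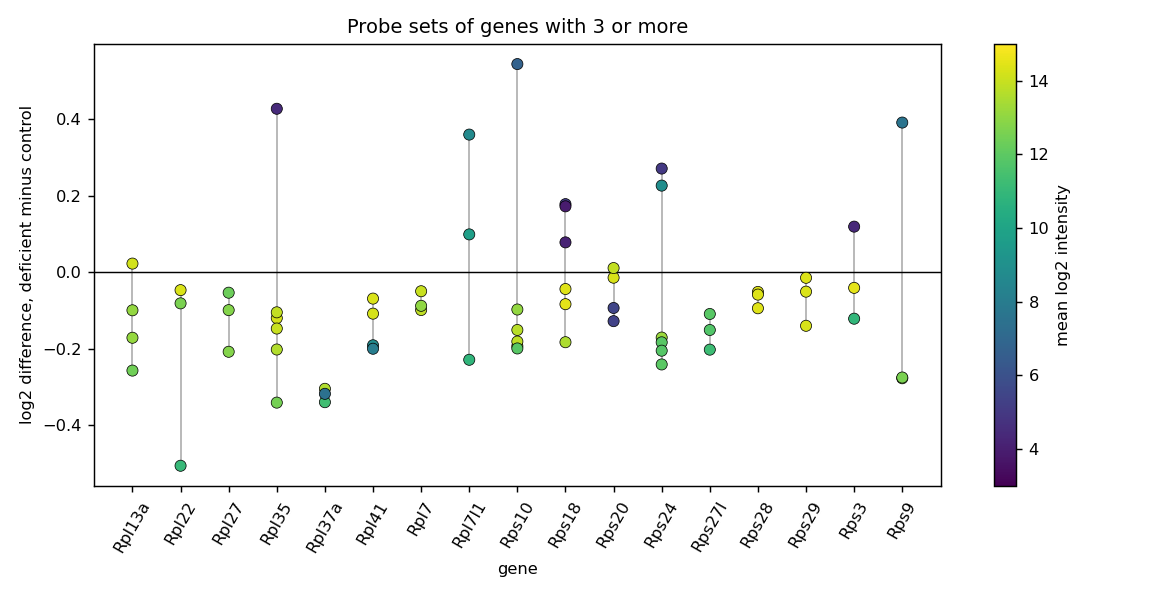
Log2 difference of each probe set for genes with 3 or more, coloured by mean log2 intensity. Dim probe sets (purple to blue) of Rps10, Rps24, Rps9 and Rpl35 lie above 0 while the bright ones (yellow and green) lie below.

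Another 110 probe sets list a ribosomal protein gene beside other symbols, such as pseudogenes, and were not members. Their median difference was -0.0790, with 86 lower means and deficient below both controls on 66 (60%, against 15.2% of all probe sets). They were assigned to no gene. In limma 0 passed (smallest adjusted p = 0.0797), and at an unadjusted p under 0.05, 15 were lower and 2 higher.

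Genes that act on ribosomal protein mRNAs were compared next. LARP1 binds the TOP tract and the cap beside it. Larp1 read 9.89 and 9.87 on the controls and 10.90, 10.77 and 10.75 on the deficient arrays. All deficient arrays lay above both controls, and the rise of 0.92 (SE 0.11) passed the threshold (limma adjusted p = 0.0210; 0.0397 over all probe sets). Larp1 had 1 probe set. Without any 1 array the difference stayed between 0.88 and 0.95 and the adjusted p lay between 0.0634 and 0.0917, so the call needed all 5 arrays. Of 11 measured genes of mTOR signalling and TOP control, Larp1 was the 1 that rose (0.83% of all genes), 0 fell, and 7 had deficient above both controls (16.5% of all genes). The list median was 0.21. Rptor, the mTOR complex subunit that recruits substrates, read 7.86 and 8.34 against 8.63, 8.84 and 8.61 (difference 0.59, adjusted p = 0.146). Eif4ebp2, which encodes an inhibitor of the cap-binding protein eIF4E, differed by 0.45 (adjusted p = 0.170) and its paralogue Eif4ebp1 by -0.21 (adjusted p = 0.384).

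**Figure D5:**
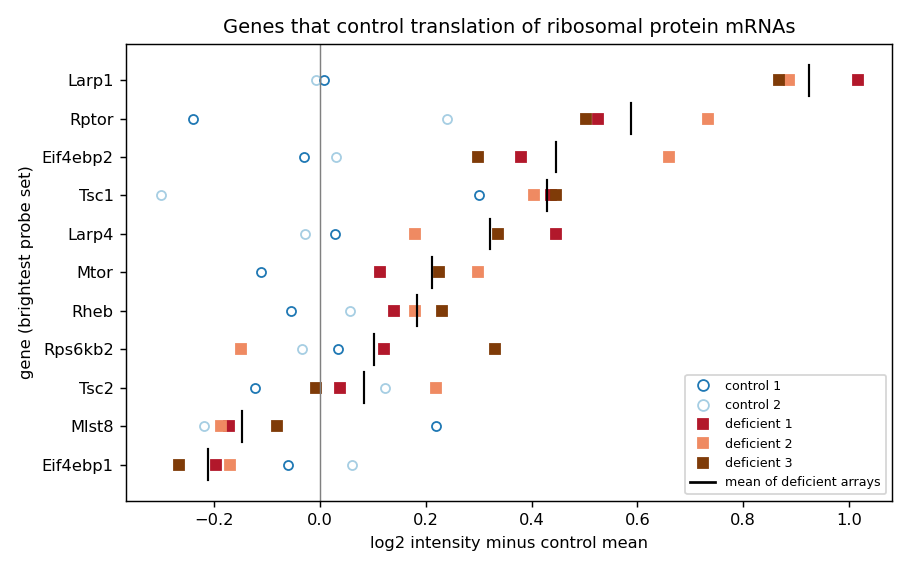
Log2 intensity minus control mean for 11 genes of mTOR signalling and TOP mRNA control, by array (open circles control, filled squares deficient, black bars deficient mean). The deficient mean of Larp1 lies 0.92 above its control mean.

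Other mRNAs known to carry a TOP tract, 16 measured of 18 listed, had a median of -0.0132, with 0 past the threshold. Eif3h, a subunit of an initiation factor, differed by -0.27 (adjusted p = 0.272) and Pabpc1, which encodes the poly(A)-binding protein, by 0.22 (adjusted p = 0.341). Among 7 elongation factor genes the median was -0.0190. Eef1d differed by -0.36 (adjusted p = 0.397), Eef2, the translocase, by -0.17 (0.642) and Eif5a by 0.11 (0.662). Of 31 initiation factor genes 0 passed. The median was 0.0681, and before adjustment 5 had a p under 0.05 with a higher mean and 4 with a lower one, where the shares of all genes were 8.79% and 9.86%. Deficient lay above both controls for 13 of the 31 and below both for 7 (16.5% and 18.6% of all genes). The smallest p-values belonged to Eif4g3 (difference 0.77, adjusted p = 0.0707), the cap-binding Eif4e (0.53, 0.0840) and Eif5b, which joins the subunits (0.89, 0.0969). Among 14 chaperones and nuclear transport genes for ribosomal proteins, the median was 0.107 and 0 passed. Of these 14, 6 had deficient above both controls and 3 below. At an unadjusted p under 0.05, 4 were higher and 0 lower (8.79% and 9.86% of all genes). Kpnb1, an importin, differed by 0.71 (adjusted p = 0.0881), Heatr3, which carries the RPL5 and RPL11 proteins, by 0.51 (0.108) and Ipo7 by 0.41 (0.128).

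The 18S ribosomal RNA, the RNA of the small subunit, was read by 3 control probe sets. The labels give total RNA as the start of labelling, and how far these probe sets follow the cells' 18S RNA was not tested. Their mean was 10.93 and 10.92 on the controls and 10.39, 10.09 and 10.21 on the deficient arrays. All deficient arrays were lower, by 0.69 in the means (10.92 ± 0.01, SD, n = 2, against 10.23 ± 0.15, n = 3; exact permutation test, two-sided p = 0.1, the smallest that 10 splits allow).

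Of the deleted genes, Rbl1 (p107) was lower by 3.04 (adjusted p = 0.0266), while Rb1 (-0.36) and Rbl2 (p130, -0.46) did not pass. Rb1 read 8.84 and 8.65 on the controls and 8.93, 7.77 and 8.46 on the arrays labelled deficient, so deficient 1 lay above both controls. Rbl2 read 8.62 and 7.997 against 7.90, 7.55 and 8.07, with overlapping groups. Whether these probe sets lie in the deleted parts of the genes is not given in the sources used here, so the Rb1 and Rbl2 levels do not check the genotype. Kit, which defines the sort, read 10.83 to 11.25 on the 5 arrays, and Ly6a (Sca-1) had no probe set with its symbol alone. Markers of other cells moved with the groups. A marker is counted as falling or rising where it passed the adjusted threshold (1.41% and 0.83% of all genes). Summed intensity of 11 mature granulocyte genes was 49671 to 60726 on the controls and 1386 to 2409 on the deficient arrays, with 9 of 11 falling. B and plasma cell genes summed to 16024 to 29140 and 1202 to 1306, with 4 of 10 falling. Means were lower for all 10, and 9 had deficient below both controls (18.6% of all genes). Macrophage and dendritic genes summed to 5058 to 7763 and 2230 to 2707, with 1 of 10 falling. Of these 10, 9 had lower means and 8 had deficient below both controls. The summed ranges of the 2 groups overlapped in the lists of T and NK (2 of 7 fell), erythroid (0 of 7), stromal or endothelial (0 of 8), megakaryocyte (1 of 6 rose) and KLS markers (0 of 5). In the T and NK list, 6 of 7 means were lower and 4 genes had deficient below both controls. The sum of that list follows mainly Nkg7, its brightest gene, which differed by 0.63 the other way. Markers below the array median on every array were Itgam, Vpreb3, C1qb, Il2rb, Alas2, Hba-a1, Cdh5, Col1a1, Cxcl12 and Lepr. The part of these cells in the ribosomal protein differences was not tested, and in bulk samples fewer cells of a type and less RNA per cell cannot be told apart.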

How the data were processed

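Per the labels' protocols, KLS cell RNA was extracted with Trizol, and biotinylated cRNA went onto Affymetrix arrays. The study hybridised 6 arrays and left out 1; 5 were analysed here. The authors deposited intensity values made with RMA, per the submitters' processing notes; the linear scale was read from the range of the values. The RMA version is not given in the sources used here. RMA sets arrays to 1 distribution, so a shift of all transcripts would not be seen. Array medians lay between 26.1 and 26.7, and the number of arrays limits the precision.

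Log2 was taken and groups were compared with limma 3.58.1 in R 4.3.3 (lmFit, eBayes, two-sided, no covariate), with Benjamini-Hochberg adjustment across all 45037 probe sets (64 control probe sets were omitted), or across 18193 genes with their brightest probe set. Gene names are those of GEO's annotation of the platform, which can be old: 34945 probe sets have 1 symbol, 932 several and 9160 none. The members, lists and tests were chosen with earlier results of these data known. Named genes were the 4 largest differences in each direction among small- and among large-subunit and stalk genes, all paralogues, and up to 3 genes of each other list with the smallest p. Rpl22, Rpl35, Rplp2, Rps9, Rps10, Rps24, Rps3a1 and Eif4ebp1 were named after their values were seen. The fit was tested on simulated data.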

Additional observations from a re-analysis of the deposited data

How the results depend on the processing

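The count of member probe sets and genes past the threshold stayed at 0 in both directions under renewed quantile normalization, cyclic loess, median centring, a low-level filter (mean log2 of 6), log2(intensity + 16), leaving out _x_at and _s_at probe sets, a robust prior, array weights, an adjusted p under 0.1, the replicate block, the mean of a gene's probe sets and each array left out. In the main fits, made without the intensity trend, no gene with a difference under 0.59 in size passed, and no probe set under 0.81. All member differences were smaller than these. The intensity trend gave 2 probe sets and 3 genes as lower, so smaller differences could pass there. Alternatives chosen after seeing the data combined the trend with a robust prior (0 probe sets, 3 genes), the low-level filter (7 and 6), no _x_at and _s_at probe sets (1 and 2) or the replicate block (0 and 0). The member median of -0.0998 ran from -0.120 to -0.0769 with 1 array left out and was -0.120 with the replicate block, which spent all but 1 residual degree of freedom. Deviations from the group means of arrays with the same number had correlations of -0.0527 and -0.0182. The deviations of the 2 controls are equal and opposite, so these values cannot decide whether the numbers pair the arrays. Larp1 did not pass with the block (adjusted p = 0.136).

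Over all probe sets, the 74 higher and 147 lower became 40 and 75 with log2(intensity + 16), 141 and 260 with the trend, 451 and 497 at an adjusted p under 0.1, and 0 and 15 with the replicate block (limma). The low-level filter gave 153 higher. With 1 array left out they ran from 2 to 5 higher and 21 to 73 lower.

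Signs of some uncalled differences turned. Without _x_at and _s_at probe sets, Rpl13a read -0.0998, Rps9 0.39 in place of -0.28 and Rps24 0.23 in place of -0.17. With the mean of probe sets, Rpl7l1 read 0.077, Rpsa -0.14 and Rpl13a -0.13. With 1 array left out, the difference ran from -0.46 to 0.0034 for Rpl7l1, -0.26 to 0.040 for Rps27l, -0.22 to 0.015 for Rpl3l, -0.015 to 0.17 for Rps25, -0.013 to 0.022 for Rpsa, -0.013 to 0.058 for Rpl13a and -0.0090 to 0.051 for Rplp0. The cause was not tested.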

Other observations

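Genes for the mitochondrial ribosome, which translates the mRNAs of the mitochondrial genome, were measured beside the cytosolic members. Of 76 measured, 44 had lower means (57.9%, against 51.9% of all genes), 12 had deficient below both controls (15.8%, against 18.6%) and 6 had deficient above (16.5% of all genes). The median difference was -0.0284, and 0 passed in limma, with 6 lower (7.89%, against 9.86% of all genes) and 0 higher (8.79% of all genes) at an unadjusted p under 0.05. The difference between the cytosolic and the mitochondrial genes was not tested.

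By type of probe set, the 40 members ending in _x_at, which may match other transcripts, had a median of -0.115 and the 29 ending in _a_at one of -0.0998. Deficient lay below both controls for 28 and 21 of them, where the share of all probe sets was 15.2%. The 35 ending in _at had a median of -0.0537 and a lower median level (8.03 against 13.7 for each of those 2 types), with 9 below (25.7%). The 3 ending in _s_at had a median of -0.276 at a median level of 12.6, with all 3 below.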
